A study of Mus musculus with 360 samples.

Results

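Heated C1498 cells picked 5 h after the end of heating were set against heated C1498 cells picked at 1 h. C1498 is a mouse line that the series describes as acute myeloid leukemia. The cells at both times had been held at 45 °C for 10 min, and a control arm was held at 37 °C for the same 10 min. Single cells were imaged and then taken up by an automated picking instrument. Members were chosen by sample title, from the temperature and the time it gives. The comparison holds 236 of the 360 cells of the series, of which 13 are heated cells at 1 h and all the others are heated cells at 5 h. The 37 °C arm had 6 cells at 5 h and 11 cells at 1 h, which give the same contrast without heat. The question is what the onset of the response to heat looks like inside the heated arm. Each GEO sample is 1 cell of 1 cell line and no label names a culture. The value at -1 h, used for the time course, comes from cells picked before heating. Each time point therefore counted as 1 sample, and no test between the times was possible. Values are compared as sums over cells and as ranges among cells. Every interval is at 95%, and that of a ratio covers counting error only. An interval for a share of cells takes the cells of 1 sample as independent draws. Where that share lies past all 1 h cells, the extreme of those 13 cells is taken as fixed. Such an interval describes these cells and does not cover other cultures. A ratio is the log2 of the level at 5 h over that at 1 h, with 0.5 UMI added to each sum, and its interval follows it in brackets.

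Cells that are heated carry unfolded proteins, which draw chaperones such as HSP70 and HSP90 away from the transcription factor HSF1. Freed HSF1 forms trimers and binds heat shock elements, arrays of inverted nGAAn units in the promoters of chaperone genes. The inducible chaperones and their J-protein and exchange-factor partners are classical targets, while RNA processing and translation of most other genes are held back early after heat. RNA polymerase III transcripts and RNAs with short lifetimes are known to respond to heat on their own schedules.

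Promoters of some chaperone genes in the results are shown here, chosen because heat shock elements can be read in them. They are RefSeq windows of GRCm38.p6 from 250 bases before to 50 bases after the annotated start, given 5′ to 3′ on the gene's strand. Capitals mark every match to GAANNTTC or TTCNNGAA, which are their own reverse complements, so both strands are covered; overlapping matches are joined. The longer forms GAANNTTCNNGAA and TTCNNGAANNTTC each contain 2 overlapping short matches. Hsph1 encodes an HSP110 protein and lies on the minus strand at chr5:149636287-149636586. Hspe1 encodes the mitochondrial cochaperonin and lies on the plus strand at chr1:55087898-55088197. Bag3 encodes an HSP70 exchange factor and lies on the plus strand at chr7:128523333-128523632. Hspa1a encodes an inducible HSP70 and lies on the minus strand at chr17:34972107-34972406. Chordc1 encodes an HSP90 cochaperone and lies on the plus strand at chr9:18292017-18292316.
Hsph1: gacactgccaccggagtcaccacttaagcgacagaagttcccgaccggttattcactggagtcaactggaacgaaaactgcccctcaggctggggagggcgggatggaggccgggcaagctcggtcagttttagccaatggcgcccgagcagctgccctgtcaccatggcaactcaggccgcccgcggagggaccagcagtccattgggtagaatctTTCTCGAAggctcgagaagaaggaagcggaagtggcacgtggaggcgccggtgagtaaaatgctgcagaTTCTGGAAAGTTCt
Hspe1: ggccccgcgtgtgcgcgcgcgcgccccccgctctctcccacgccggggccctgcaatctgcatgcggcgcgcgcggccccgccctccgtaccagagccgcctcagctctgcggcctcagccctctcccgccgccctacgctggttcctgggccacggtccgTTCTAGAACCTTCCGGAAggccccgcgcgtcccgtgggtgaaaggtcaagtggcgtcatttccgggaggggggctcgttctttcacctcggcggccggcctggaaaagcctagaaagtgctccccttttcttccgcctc
Bag3: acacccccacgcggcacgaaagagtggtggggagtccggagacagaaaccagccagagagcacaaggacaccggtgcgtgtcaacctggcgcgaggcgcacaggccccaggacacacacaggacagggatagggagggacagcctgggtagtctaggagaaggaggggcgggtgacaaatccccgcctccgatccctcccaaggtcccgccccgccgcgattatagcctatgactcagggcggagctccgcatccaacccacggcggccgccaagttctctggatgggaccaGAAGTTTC
Hspa1a: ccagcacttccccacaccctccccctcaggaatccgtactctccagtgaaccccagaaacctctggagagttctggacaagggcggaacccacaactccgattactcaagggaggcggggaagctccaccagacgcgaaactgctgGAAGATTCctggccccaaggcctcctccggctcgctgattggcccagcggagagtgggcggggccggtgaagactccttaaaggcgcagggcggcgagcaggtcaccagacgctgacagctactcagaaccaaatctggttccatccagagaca
Chordc1: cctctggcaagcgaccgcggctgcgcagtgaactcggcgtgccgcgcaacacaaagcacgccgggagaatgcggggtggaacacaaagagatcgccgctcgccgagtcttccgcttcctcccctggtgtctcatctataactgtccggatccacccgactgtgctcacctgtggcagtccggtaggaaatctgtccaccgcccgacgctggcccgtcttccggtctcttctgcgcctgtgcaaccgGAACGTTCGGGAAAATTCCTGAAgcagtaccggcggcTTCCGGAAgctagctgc

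The Hspe1 window held an unbroken run of 18 matched bases that ended 72 bases before the start. The window of Hspd1, its partner gene on the other strand, overlaps it by 285 bases in 1 of its annotated forms and holds the same run read from the other strand. In the Hsph1 window a match of 13 bases lay after the start, from base 37 to base 49, and a match of 8 bases lay 33 to 26 bases before it. The Chordc1 window held the longest run, 23 bases across the start. Bag3 and Hspa1a had a match of 8 bases each, and 296 of 300 bases of the Hspa1a window were identical in the window of Hspa1b, its near-copy. Both annotated windows of Dnajb1, a chaperone gene with a high ratio below, held 0 matches and are not shown. No window was at hand for Hsp90aa1 and Hsp90ab1, so the windows shown do not stand for all leading chaperone genes. Of 32851 promoter windows in the table, 0.603% held a longer form and 15.1% a short form. Among the measured heat shock chaperone genes with a window, 3 of 40 (7.50%) held a longer form and 11 (27.5%) a short form. Of the genes that stood at least 2-fold higher at 5 h, 3 held a longer form, which is 1.97% of those with a window, against 0 of the genes at least 2-fold lower and 0.713% of the 4349 measured genes with a window. These 3 were Hsph1, Hspe1 and Hspd1, and the run that Hspe1 and Hspd1 share is counted for both. A short form was held by 18.4% of the genes at least 2-fold higher, 14.4% of those at least 2-fold lower and 13.6% of all measured genes with a window. A match describes letters in this window and is not evidence that a factor bound there.

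The heated cells at 5 h had 6809101 UMIs in all and 3443, 29075 and 122196 UMIs per cell as lowest, median and highest. The 13 heated cells at 1 h had 435096 UMIs in all and 11914, 31727 and 84760 per cell. The unit below is CPM, the share of a group's UMIs scaled to 1e+06, so it gives shares of RNA and not amounts per cell. No 2 of the 360 cells had identical values. Rn45s, the ribosomal RNA precursor, took 6.04% to 79.6% of a cell's UMIs at 5 h and 9.75% to 19.4% at 1 h, with medians of 12.4% and 11.2%. All 9 general leukocyte markers had UMIs at 5 h and 8 of 9 at 1 h, with summed levels of 3069 CPM and 4206 CPM. Of 14 myeloid markers 4 had UMIs at 5 h and 1 at 1 h, with sums of 15.4 and 35.6 CPM. Fcgr3 made up most of the first sum and all of the second, at 11.9 and 35.6 CPM. Lyz2, Elane, Spi1, Csf1r, Kit and S100a8 were at 0 at both times, which goes against the myeloid description of the line. Genes of the T and NK list had UMIs for 11 of 16 markers at 5 h and 5 of 16 at 1 h and summed to 471 CPM at 5 h and 502 CPM at 1 h. Most of both sums came from Cd3e, at 217.1 and 242.5 CPM, and Cd3g, at 193.3 and 220.6 CPM, of the T cell receptor complex. Cd3d of the same complex stood at 6.17 and 2.30 CPM, and Cd4, Nkg7, Gzmb, Prf1 and Klrb1c were at 0 at both times. B cell markers summed to 6.17 CPM at 5 h and 0 at 1 h, erythroid markers to 4.85 and 3.45 CPM, and fibroblast and endothelial markers to 12.6 and 18.4 CPM.

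At 5 h after heating, RNAs of single chaperone genes, led in level by Hsp90ab1, Hsp90aa1 and Hsph1, and 13 of 14 measured nuclear and snoRNA host noncoding RNAs stood higher than at 1 h. Over the 52 measured chaperone genes the median log2 ratio was 0.17, against 0.22 in the control arm. Lower at 5 h stood 33 of 44 replication genes, 18 of 18 measured cholesterol genes, 14 of 19 measured genes of the endoplasmic reticulum, 21 of 24 measured actin cytoskeleton genes and 3 of 4 measured RNAs made by RNA polymerase III. Among all measured genes 59.4% stood lower and 40.6% higher, and list counts are to be read against these shares. A gene counted as measured where the mean of its levels at the 2 times was at least 20 CPM, which 5417 of 24781 genes met. Of these, 200 (3.69%) stood at least 2-fold higher at 5 h and 259 (4.78%) at least 2-fold lower. The same counts in the 37 °C arm were 234 (3.99%) and 440 (7.49%) of 5872 genes, so the counts alone do not set the heated arm apart. The control arm rests on fewer cells and UMIs. Among genes with a mean of at least 500 CPM, 7 of 228 stood at least 2-fold higher and 2 at least 2-fold lower in the heated arm, against 0 and 0 of 225 in the control arm. Among those 7 were Hsp90aa1, Hsph1, Hspd1, Hspe1, Malat1 and Lrrc17, and the 2 lower ones were Rn4.5s and Tmsb4x. Lrrc17, a secreted leucine-rich repeat protein gene singled out after its values were seen, stood at 4852 CPM at 5 h and 2042 CPM at 1 h, a log2 ratio of 1.25, against -0.49 in the control arm. Its cells ran from 0 to 34808 CPM at 5 h and from 0 to 14575 CPM at 1 h, so the ranges overlapped widely. The medians of single cells were 604 and 271 CPM, under the 1420.5 and 2296 CPM of the control arm. With a mean of at least 100 CPM, 28 and 24 of 1532 genes passed the fold in the heated arm, against 6 and 25 of 1652 in the control arm. The median log2 ratio of all measured genes was -0.10 in the heated arm and -0.04 in the control arm, and list medians are to be read against these.

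**Figure D1:**
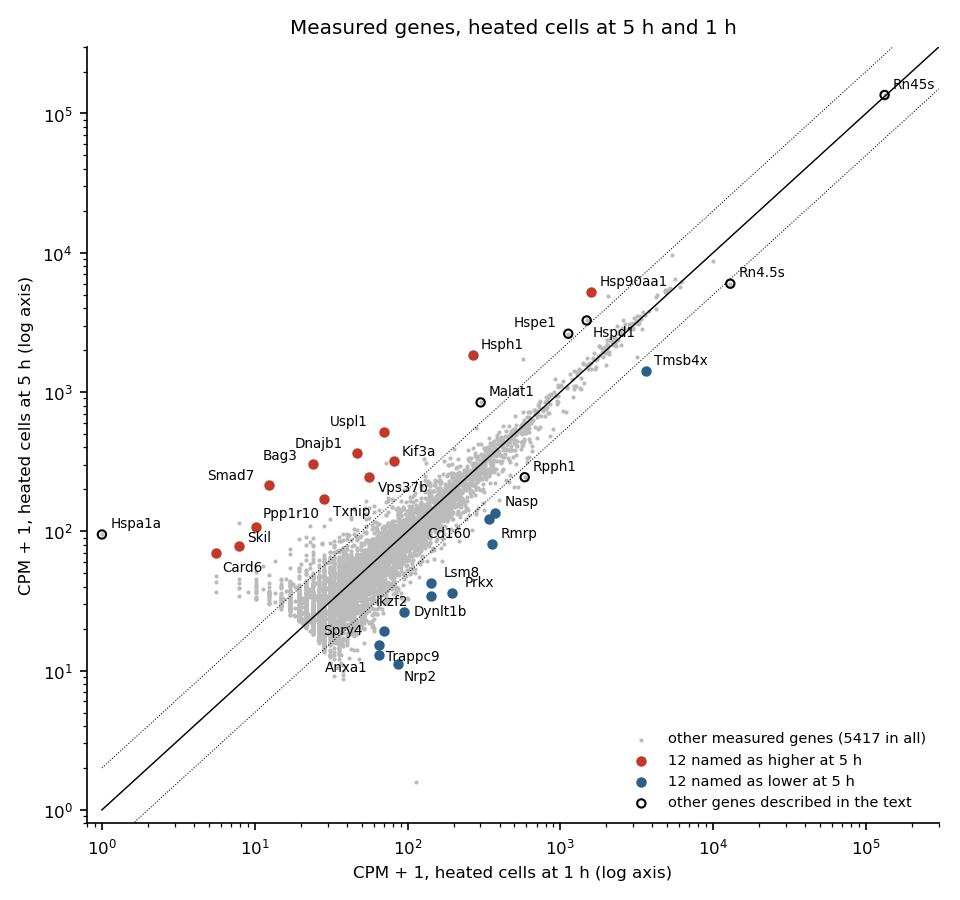
Levels of the 5417 measured genes in heated cells at 5 h (vertical axis) and at 1 h (horizontal axis), each as CPM of the summed cells plus 1 on log axes. The solid line marks equal levels and the dotted lines a 2-fold difference, and the high-level genes past the upper dotted line include Hsp90aa1, at 5202 CPM at 5 h and 1582 CPM at 1 h.

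Among HSP70 and HSP110 genes, Hsph1 stood far higher at 5 h while the constitutive members differed little. Hsph1, whose product is an exchange factor and holdase for HSP70, had 0, 1588 and 10510.4 CPM as lowest, median and highest of the 5 h cells, against 47.4, 216.4 and 431 CPM in the 1 h cells. All but 29 of the cells at 5 h lay above the highest cell at 1 h, a share with an exact Clopper-Pearson interval of 81.9% to 91.1%. Only 2 of them lay below the lowest, so the groups overlapped in few cells. Summed over cells, Hsph1 stood at 1838 CPM at 5 h and 266 CPM at 1 h (log2 2.78, 2.52 to 3.06), whereas in the control arm it stood at 365 and 164.3 CPM (1.15, 0.67 to 1.64). Part of the ratio over time was thus also seen at 37 °C. Hspa8, the constitutive cytosolic HSP70, stood at 3296 CPM at 5 h and 2571 CPM at 1 h (0.36, 0.27 to 0.45), a smaller ratio than the 0.57 (0.43 to 0.70) of the control arm. The HSP70 relative Hspa4 stood at 331 and 283 CPM (0.22, -0.04 to 0.50).

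The inducible Hspa1a was seen in few cells. It had UMIs in 20 of the cells at 5 h (8.97%) and in 0 of 13 at 1 h, with a highest cell of 7406 CPM. Its sum was 93.9 CPM at 5 h against 0 at 1 h, where the floor of 3 counts over the group is 6.90 CPM, so it stood at least 13.6-fold higher than that floor. Thinned to 5000 UMIs per cell, 4.95% (2.50% to 8.69%) of 5 h cells had a UMI of Hspa1a and 0% (0% to 24.7%) of 1 h cells. Hspa1b, whose reads can be split with it, stood at 19.4 CPM at 5 h and 0 at 1 h, and 78.3% of Hspa1a UMIs lay in values that were not whole. Hspa13, a microsomal HSP70 relative, stood lower at 17.04 CPM at 5 h and 43.7 CPM at 1 h (-1.39, -2.07 to -0.57), but at 0.66 with cells thinned to 5000 UMIs. In the list of 11 HSP70 and HSP110 genes, 7 were measured, 5 of them higher (40.6% of all measured genes were), with a median log2 ratio of 0.36.

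J-proteins, which deliver clients to HSP70 and trigger its ATPase, were led by Dnajb1. It had 0, 225 and 2740.1 CPM as lowest, median and highest of the cells at 5 h, against 0, 47.2 and 121.3 CPM at 1 h, and all but 57 cells at 5 h (74.4%) lay above all cells at 1 h. The sums were 367 CPM at 5 h and 45.97 CPM at 1 h (2.96, 2.37 to 3.71), with 69.7 and 32.9 CPM in the control arm (1.07, -0.04 to 2.25). Thinned to 5000 UMIs per cell the ratio was 1.76. Dnaja1, the most abundant J-protein RNA here, stood at 548 CPM at 5 h and 278 CPM at 1 h (0.97, 0.72 to 1.25; control 0.29). At the other end Dnajc3, a J-protein of the endoplasmic reticulum, stood at 89.1 and 135.6 CPM (-0.62, -0.99 to -0.19). Of 18 measured J-protein genes among 23, 12 stood higher, 2 of them at least 2-fold, and the median was 0.03 (0.16 in the control arm). The list as a whole therefore lay near the median of all genes.

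HSP90, which folds kinases and steroid receptors, gave the largest gain in level. Hsp90aa1, its inducible gene, had 638, 5284 and 13499 CPM as lowest, median and highest of the 5 h cells, against 708, 1434 and 2036 CPM in the 1 h cells. The groups overlapped little, with all but 16 cells at 5 h (92.8%, 88.6% to 95.8%) above every cell at 1 h and 1 below. Summed, it stood at 5202 CPM at 5 h and 1582 CPM at 1 h (1.72, 1.61 to 1.83), against 1620.4 and 1265 CPM at 37 °C (0.36, 0.16 to 0.55). Hsp90ab1, the constitutive gene, stood at 9675 CPM at 5 h and 5405 CPM at 1 h (0.84, 0.78 to 0.90; control 0.20), and all but 34 cells at 5 h (84.8%) lay above all cells at 1 h. Chordc1, the gene with the longest run of matched bases shown above, stood only at 97.8 and 66.7 CPM (0.53, 0.02 to 1.14), under its control ratio of 0.83 (-0.11 to 1.79). Ahsa2, an activator of the HSP90 ATPase, stood at 45.5 and 58.6 CPM (-0.42, -0.97 to 0.24). In this list of 19 genes 17 were measured, 12 stood higher and 3 at least 2-fold so, with a median of 0.27 (control 0.30). The summed list stood at 17552 CPM at 5 h and 9152 CPM at 1 h, a log2 ratio of 0.94, against 0.24 in the control arm.

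Of the exchange factors, which release ADP from HSP70, Bag3 had the highest ratio. Bag3 also links HSP70 to autophagy of damaged proteins. Its cells had 0, 263 and 919 CPM as lowest, median and highest at 5 h, against 0, 0 and 94.7 CPM at 1 h, and all but 54 cells at 5 h (75.8%) lay above all cells at 1 h. The sums were 301 CPM at 5 h and 22.98 CPM at 1 h (3.64, 2.83 to 4.77), while the control arm stood at 28.7 and 30.3 CPM (-0.04, -1.66 to 1.38). Bag3 UMIs were present in all but 20 cells at 5 h and in 46.2% of cells at 1 h, and, thinned to 5000 UMIs, in 66.2% (59.6% to 72.4%) and 7.69% (0.195% to 36.03%). The difference in detection was therefore present at equal depth. Bag6, which handles membrane proteins that miss their target, stood at 246 and 195.4 CPM (0.32), and Sil1, the exchange factor of the endoplasmic reticulum, at 15.5 and 36.8 CPM (-1.28, -2.01 to -0.38). Of 14 genes of exchange factors and small heat shock proteins 10 were measured, 6 of them higher, with a median of 0.17, or -0.80 with cells thinned to 5000 UMIs. The filter of 20 CPM was applied again after thinning. Thinned list medians, here and below, can therefore cover other members and rest on few UMIs at 1 h.

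The mitochondrial chaperonin pair stood higher together. Hspd1, the chaperonin itself, had 389.6, 3243 and 6149 CPM as lowest, median and highest of the cells at 5 h, against 933, 1434 and 2456 CPM at 1 h, and summed to 3263 and 1487 CPM (1.13, 1.02 to 1.25; control 0.27). Hspe1, its cap, had 0, 2624 and 7402 CPM at 5 h, against 429, 1279 and 1736 CPM at 1 h, and summed to 2621 and 1126 CPM (1.22, 1.09 to 1.35; control 0.34). Above all cells at 1 h lay 74.9% of the cells at 5 h for Hspd1 and 83.9% for Hspe1. The other measured mitochondrial chaperones and proteases lay closer to 0, so that 8 of 12 stood higher with a median of 0.26 and Dnaja3 at the low end with -0.53 (-1.09 to 0.13), or at 0.33 thinned. The cytosolic chaperonin CCT, which folds actin and tubulin, did not follow. Of its 14 genes with prefoldin 7 stood higher and 7 lower, 0 past 2-fold, and the median was 0.0065. Its extremes were Cct3 at 0.27 (0.05 to 0.52) and Vbp1 at -0.41 (-0.80 to 0.03), and Tcp1 stood at 932 CPM at 5 h and 941 CPM at 1 h.

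Over HSP70, J-proteins, HSP90 and exchange factors, 52 of 67 chaperone genes were measured, of which 35 stood higher and 17 lower. At least 2-fold higher were 8 of them (Hspa1a, Hsph1, Dnajb1, Dnajb4, Hsp90aa1, St13, Fnip1 and Bag3) and at least 2-fold lower 2 (Hspa13 and Sil1), with a median log2 ratio of 0.17 (median of the bounds -0.27 to 0.59) against 0.22 in the control arm. The median over the genes was thus no higher in the heated arm than in the control arm. The summed level stood at 27758 CPM at 5 h and 15767 CPM at 1 h (0.82, 0.78 to 0.85), against 17229.8 and 14386 CPM in the control arm (0.26, 0.20 to 0.32). Hsp90ab1, Hsp90aa1 and Hsph1 made up 78.9% of the summed gain of 11991 CPM. Per cell, the sum was 4495, 27776 and 49649.5 CPM as lowest, median and highest at 5 h, against 11730.0, 16058 and 19069 CPM at 1 h. All but 20 of the cells at 5 h lay above every cell at 1 h, a share with an interval of 86.5% to 94.4%, and 3 lay below every one of them. Those 3 cells had 79.6%, 68.1% and 47.4% of their UMIs in Rn45s, and whether that share sets their chaperone level was not tested. Of the 25 cells at 5 h with more Rn45s than every cell at 1 h, 19 lay above all cells at 1 h in the chaperone sum, as did 92.9% of the other cells at 5 h.

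**Figure D2:**
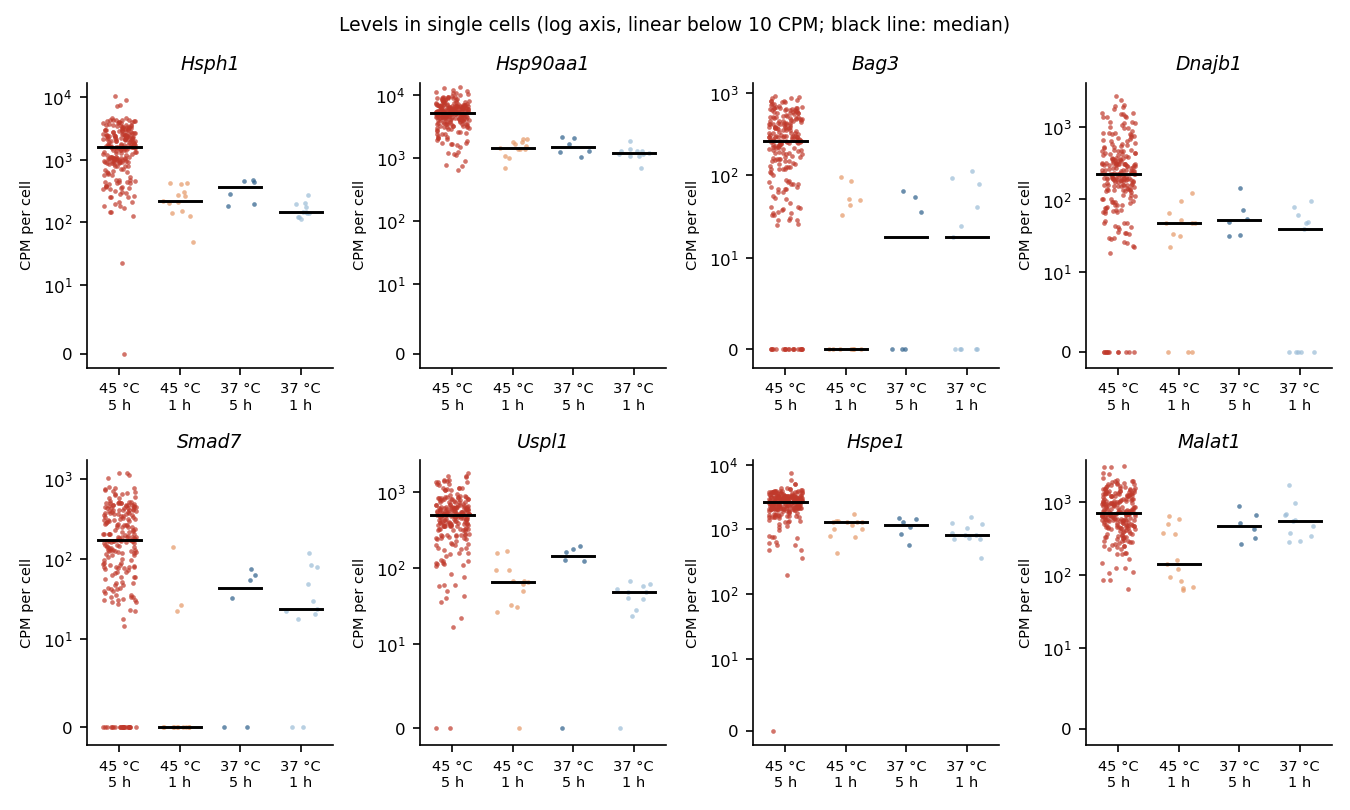
CPM per cell of 8 genes that stood higher in heated cells at 5 h, with heated cells at 5 h and 1 h on the left of each panel and 37 °C cells at 5 h and 1 h on the right, on a log axis that is linear below 10 CPM. Each point is a cell and black lines are medians; for Hsph1 the heated medians are 1588 CPM at 5 h and 216.4 CPM at 1 h.

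Within the 5 h cells, chaperone RNAs varied together only in part. Over the cells at 5 h thinned to 5000 UMIs, which are all but 1 of them, the Spearman correlation was 0.45 between Hspd1 and Hspe1, 0.40 between Hsph1 and Hspe1, 0.33 between Hsph1 and Dnajb1 and 0.17 between Hsph1 and Bag3. Hsph1 and Txnip, another gene that stood higher, had -0.17. These cells share a picking time and a depth, sparse counts weaken such values, and they are given as a description.

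Proteasome genes lay near 0, while some autophagy genes stood higher. Of the 35 ubiquitin and proteasome genes 18 stood higher, with a median of 0.04 and Psma2, a core proteasome subunit, lowest at -0.59 (-0.84 to -0.31). The abundant Rps27a stood at 0.10. Sqstm1, the p62 receptor that carries ubiquitinated cargo to autophagosomes, stood at 167.1 CPM at 5 h and 79.3 CPM at 1 h (1.08, 0.61 to 1.63; control -0.12), and Ctsl, a lysosomal protease, at 80.8 and 26.4 CPM (1.49, 0.73 to 2.51; control 0.70), or 0.66 thinned. Of 17 measured autophagy and lysosome genes among 20, 11 stood higher, 3 of them at least 2-fold, and Atg7 stood lowest at -1.04 (-1.83 to -0.04), or at -1.86 thinned. Their median was 0.32, or 0.04 with cells thinned to 5000 UMIs. Zfand2a, a proteasome adaptor induced by arsenite and heat, stood at 90.5 CPM at 5 h and 20.7 CPM at 1 h (2.05, 1.19 to 3.26) and was chosen after its values were seen.

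Several genes outside the chaperone lists had ratios as high as the chaperones. Smad7, an inhibitor of TGF-beta signalling, had 0, 171.4 and 1184 CPM as lowest, median and highest of the cells at 5 h, against 0, 0 and 141.7 CPM at 1 h. Its sums were 215.5 CPM at 5 h and 11.5 CPM at 1 h (4.09, 3.004 to 5.85; control 0.09), the highest ratio of the 12 genes named by rank. It stood at 5.16 without 1 h replicate 8 and at 3.39 thinned to 5000 UMIs. Skil, which represses the same SMAD pathway, stood at 77.8 and 6.90 CPM (3.28, 1.94 to 5.78; control -0.22), or at 4.38 without 1 h replicate 7. At 1 h, 3 of 13 cells held a UMI of Smad7 and 2 of 13 a UMI of Skil. Uspl1, a SUMO protease of Cajal bodies, had 0, 499 and 1786 CPM at 5 h, against 0, 65.7 and 167.9 CPM at 1 h, and all but 26 cells at 5 h (88.3%) lay above all cells at 1 h. It summed to 512 CPM at 5 h and 68.95 CPM at 1 h (2.87, 2.38 to 3.46), with 1.51 (0.65 to 2.45) in the control arm. Txnip, an inhibitor of thioredoxin, stood at 169.5 CPM at 5 h and 27.6 CPM at 1 h (2.56, 1.81 to 3.58), also with a high control ratio of 1.48 (0.42 to 2.66). Vps37b, a subunit of the ESCRT-I sorting complex, stood at 243 and 55.2 CPM (2.11, 1.56 to 2.79) against -0.69 in the control arm.

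The remaining genes named by rank rested on few UMIs at 1 h or on values that were not whole. Ppp1r10, a nuclear targeting subunit of protein phosphatase 1, stood at 106.7 CPM at 5 h and 9.19 CPM at 1 h (3.37, 2.18 to 5.42), with 54.4% of its UMIs in values that were not whole and 4.08 without 1 h replicate 5. Card6, a gene of the caspase recruitment domain family, stood at 68.8 and 4.60 CPM (3.58, 2.04 to 6.95), or at 4.22 without 1 h replicate 13 and 4.21 without replicate 3. Kif3a, a kinesin motor gene, stood at 321 and 80.03 CPM (1.98, 1.52 to 2.52), but 96.6% of its UMIs were not whole, only 23 cells at 5 h (10.3%) lay above all cells at 1 h, and without 1 h replicate 13 it stood at 3.77. For Kif3a the ratio from whole-number values was 0.43. Thinned to 5000 UMIs, Card6 stood at 1.65, Txnip at 1.29, Vps37b at 1.21 and Ppp1r10 at 2.46. Outside the rank, Osgin1, an oxidative stress gene, stood at 113.6 CPM at 5 h and 6.90 CPM at 1 h (3.82, 2.49 to 6.32; control -0.44), or 4.93 without 1 h replicate 7, while most of the list it belongs to lay close to 0. Of 15 measured oxidative and metal stress genes among 20, 5 stood higher, with a median of -0.03, Prdx1, a peroxiredoxin, lowest at -0.43 and the abundant Ftl1 and Sod1 at 0.22, or 1.97 from whole-number values, and -0.07. Mtf1, the metal-response transcription factor, was chosen after its values were seen and stood at 87.2 and 18.4 CPM (2.16, 1.26 to 3.46), or 0.98 thinned.

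Immediate early genes, which are switched on within minutes of a stimulus and whose RNAs decay fast, mostly stood higher at 5 h. Of 13 measured among 31 genes 10 stood higher (40.6% of all measured genes did), 5 at least 2-fold. The summed list stood at 1188 CPM before heating, 706 CPM at 1 h and 1223 CPM at 5 h. Its 5 h level was thus near the level before heating, with a lower level at 1 h. The median log2 ratio of the list was 0.85 against 0.40 in the control arm. It was 1.25 without 1 h replicate 13 and 0.38 thinned. Junb, an AP-1 subunit, had 0, 68.6 and 1536 CPM as lowest, median and highest of the cells at 5 h, against 0, 0 and 200.3 CPM at 1 h, and summed to 120.8 and 29.9 CPM (1.96, 1.23 to 2.93), or 2.71 without 1 h replicate 13. Mcl1, a survival factor, stood at 163.1 CPM at 5 h and 89.6 CPM at 1 h (0.85, 0.40 to 1.36; control 0.63), and Jund at 198.3 and 168.9 CPM (0.21, -0.12 to 0.58). Myc stood lower, at 12.4 CPM at 5 h and 34.5 CPM at 1 h (-1.52, -2.29 to -0.58), but stood at -0.76 without 1 h replicate 13 and at 0.55 thinned. The list of transcripts with very short half-lives, which shares Junb, Myc, Mcl1 and others with it, had 6 of 9 measured genes higher and a median of 0.85 (control 0.49), with Ier2 at 150.5 and 59.8 CPM (1.30, 0.77 to 1.95), or 0.51 thinned. Of 6 measured signal feedback genes, which include Smad7, 3 stood higher with a median of 0.0054, and Dusp6, a phosphatase of ERK, stood lowest at -0.58 (-0.98 to -0.13).

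Nuclear and snoRNA host noncoding RNAs stood higher as a group. Of 14 measured among 18 genes 13 stood higher, 7 of them at least 2-fold, and their median was 1.02 against 0.04 in the control arm, where 9 of 15 stood higher (46.9% of all genes did). Thinned to 5000 UMIs the median was 0.72. Malat1, a nuclear speckle RNA, had 63.6, 702 and 3089.5 CPM as lowest, median and highest of the cells at 5 h, against 63.04, 141.7 and 649 CPM at 1 h. It summed to 841 CPM at 5 h and 299.9 CPM at 1 h (1.49, 1.24 to 1.76), against 496 and 592 CPM in the control arm (-0.25), and the heated ratio was 2.36 thinned. The 1 h level was the lowest of the heated arm, which stood at 352 CPM before heating and at 652 and 908 CPM at 10 h and 15 h. Gas5, a host of small nucleolar RNAs, stood at 566 CPM at 5 h and 421 CPM at 1 h (0.43, 0.22 to 0.65; control -0.42), and Snhg20 at 46.5 and 4.60 CPM (3.02, 1.47 to 6.39), or 3.71 without 1 h replicate 10. Only Snhg6 stood at or under 0, at -0.01 (-0.30 to 0.30). Summed per cell, 49.8% of the cells at 5 h lay above all cells at 1 h and 0 lay below.

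Of the 4 measured short RNAs that RNA polymerase III makes, 3 stood lower at 5 h than at 1 h. In the heated arm the summed list stood at 126.4 CPM before heating, 13921.5 CPM at 1 h and 6370 CPM at 5 h. Its 5 h level was thus under that at 1 h but still far above that before heating. Rn4.5s, a rodent small RNA, had 47.7, 3296 and 159633 CPM as lowest, median and highest of the cells at 5 h, against 6854, 14268 and 19169 CPM at 1 h. All but 75 of the cells at 5 h (66.4%, 59.8% to 72.5%) lay below the lowest cell at 1 h, and 18 lay above the highest, so this RNA spread far more among cells at 5 h. Its sums were 5994 CPM at 5 h and 12951 CPM at 1 h (-1.11, -1.15 to -1.07), while the control arm stood at 468 and 155.4 CPM (1.57, 1.12 to 2.05). Rpph1, the RNA of ribonuclease P, which trims transfer RNA, stood at 244 and 584 CPM (-1.26, -1.45 to -1.06). Rmrp, the RNA of ribonuclease MRP, which cuts the ribosomal RNA precursor, had 0, 28.7 and 1193 CPM as lowest, median and highest at 5 h, against 65.2, 224 and 1091 CPM at 1 h, and summed to 80.2 and 359 CPM (-2.16, -2.42 to -1.89). For Rmrp too, all but 75 of the cells at 5 h lay below the lowest cell at 1 h. Vaultrc5, a vault RNA, stood at 39.4 and 25.3 CPM (0.58, -0.22 to 1.66). In the control arm Rpph1 and Rmrp had 28.7 and 4.10 CPM at 5 h and 2.53 and 0 CPM at 1 h. Of 14 genes of this list 4 were measured and 3 stood at least 2-fold lower, with a median of -1.19.

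The transcripts of Rmrp and Rpph1 are shown because the library primer ends in 14 T bases and these RNAs are not known to carry long tails. The sequences are from GENCODE M21 on GRCm38 (Rmrp, 271 bases at chr4:43492788-43493058, and the first 300 of the 319 bases of Rpph1 at chr14:50807449-50807767, both on the minus strand and both the single exon of a ribozyme gene), 5′ to 3′, with any run of at least 4 A in capitals. Both had 0 such runs, and the longest run was 3 A in Rmrp and 2 A in Rpph1.
Rmrp: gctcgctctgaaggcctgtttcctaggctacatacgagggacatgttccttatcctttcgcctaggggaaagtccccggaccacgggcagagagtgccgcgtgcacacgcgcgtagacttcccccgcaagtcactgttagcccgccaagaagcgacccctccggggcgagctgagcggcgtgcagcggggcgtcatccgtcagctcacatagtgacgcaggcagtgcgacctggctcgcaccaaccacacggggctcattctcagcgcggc
Rpph1: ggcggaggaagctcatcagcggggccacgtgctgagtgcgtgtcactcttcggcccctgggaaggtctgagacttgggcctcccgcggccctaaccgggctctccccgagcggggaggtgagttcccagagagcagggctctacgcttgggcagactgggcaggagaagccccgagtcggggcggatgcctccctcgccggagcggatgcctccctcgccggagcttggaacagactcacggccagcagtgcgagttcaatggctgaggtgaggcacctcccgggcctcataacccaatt
How these RNAs entered the libraries was not tested, so a level here may reflect their number, a tail added to them or both, which cannot be told apart. Within the thinned cells at 5 h, Rn4.5s had a Spearman correlation of 0.38 with Rpph1, 0.37 with Rmrp and -0.34 with Hsph1, given as a description.

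**Figure D3:**
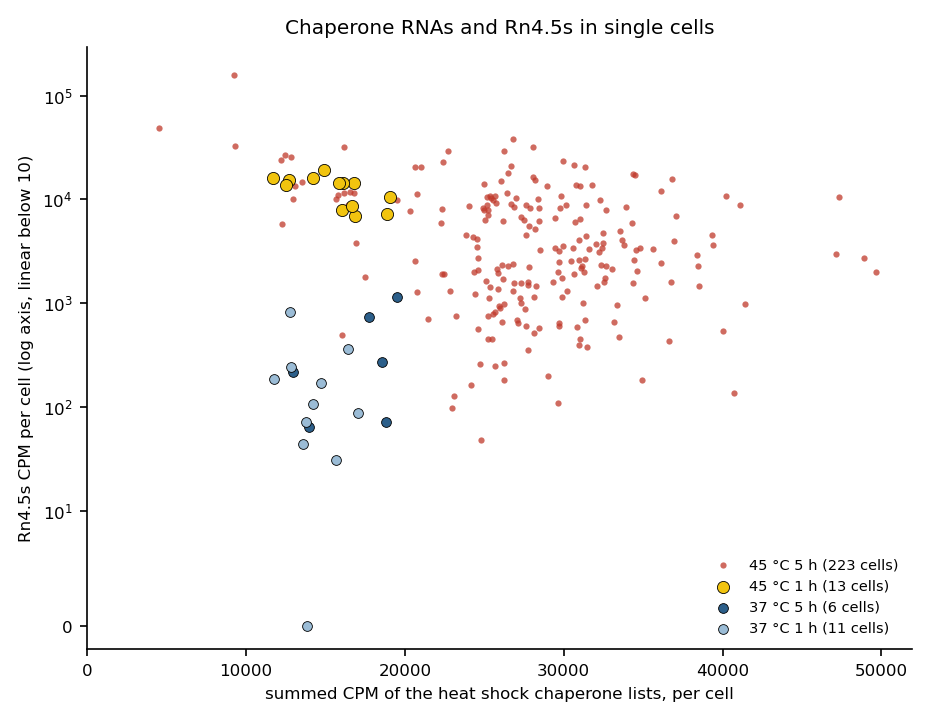
Rn4.5s CPM (vertical log axis, linear below 10 CPM) against the summed CPM of the 67 heat shock chaperone genes (horizontal axis), with each point a cell. Heated cells at 5 h spread over a Rn4.5s range of 47.7 to 159633 CPM and mostly lie right of the heated cells at 1 h, which end at 19069 CPM of chaperone RNA, and the 37 °C cells of both times lie at the lower left.

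Genes of DNA replication and the histone chaperone Nasp stood lower at 5 h. Nasp had 0, 115.3 and 782 CPM as lowest, median and highest of the cells at 5 h, against 67.8, 278 and 625 CPM at 1 h, and 67 cells lay below every cell at 1 h. It summed to 135.3 CPM at 5 h and 370.0 CPM at 1 h (-1.46, -1.69 to -1.20), while the control arm stood at 464 and 293 CPM (0.66, 0.27 to 1.05). Of the 44 genes of replication and S phase, all of which were measured, 33 stood lower (59.4% of all genes did), 5 at least 2-fold, with a median of -0.34. In the control arm 32 of 43 stood higher, with a median of 0.34. Gins1, a subunit of the replicative helicase, stood at 14.7 CPM at 5 h and 50.6 CPM at 1 h (-1.81, -2.46 to -1.05), whereas Pold1, a polymerase subunit, stood at 95.9 and 66.7 CPM (0.50, -0.01 to 1.11) and the helicase genes Mcm6 and Mcm7 at 0.26 and -0.20. The list thus held members in both directions. G2 and mitosis genes were lower in both arms, with 30 of 41 lower and a median of -0.21 in the heated arm and -0.33 in the control arm. Among them Ttk, a spindle checkpoint kinase, stood at -1.34 (-2.05 to -0.47) and Cks2, a cyclin-dependent kinase subunit, at 0.76 (0.34 to 1.23). The replication-dependent histone genes that were measured, 4 of 65, stood at a median of 0.07 in the heated arm and 1.28 in the control arm. Hist1h2ao and Hist1h2ap, near copies with 91.7% and 91.9% of UMIs not whole, stood at 0.09 and 0.05, or at 2.85 and 2.50 from whole-number values.

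Cholesterol genes stood lower without exception among those measured. Of 18 measured among 22 genes 18 stood lower (59.4% of all measured genes did), 3 of them at least 2-fold. Their median was -0.37, or -0.92 among those of at least 100 CPM. In the control arm the median was -0.14 and 9 of 16 were lower (53.1% of all genes were). Fdps, an enzyme of the pathway with many UMIs, stood at -0.34. Hmgcs1, which makes the precursor of mevalonate, was chosen after its values were seen and stood at 59.99 and 167.8 CPM (-1.49). Stard4, a sterol carrier, was the highest at -0.02 (-0.68 to 0.82), or -0.64 as a mean over cells. The summed list stood at 852 CPM at 5 h and 1289 CPM at 1 h (-0.60, -0.72 to -0.47), with 970.2 and 1005 CPM in the control arm.

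Chaperone and unfolded protein response genes of the endoplasmic reticulum mostly stood lower. Of 19 measured among 21 genes 14 stood lower (59.4% of all measured genes did) and 5 higher, with a median of -0.34 against 0.08 in the control arm. Hspa5, the HSP70 of this compartment, had 0, 267 and 1938 CPM as lowest, median and highest of the cells at 5 h, against 219.1, 681 and 928 CPM at 1 h, and summed to 335 and 606 CPM (-0.86, -1.04 to -0.67; control -0.16). The calcium-binding chaperone genes Calr and Canx stood at -0.40 (-0.57 to -0.23) and -0.14 (-0.32 to 0.05). Herpud1, which helps degrade proteins of this compartment, stood higher at 85.6 CPM at 5 h and 36.8 CPM at 1 h (1.18, 0.51 to 2.04), or at 2.0 without 1 h replicate 2 and 1.94 thinned, while the control arm stood at -1.69 (-3.82 to -0.28). In the integrated stress response list, 6 of 19 measured genes stood higher with a median of -0.07, against -0.65 in the control arm. Atf4, its transcription factor, stood at 313 CPM at 5 h and 599.9 CPM at 1 h (-0.94, -1.13 to -0.75), near its control ratio of -0.77. Ppp1r15b, a phosphatase subunit that restores translation, stood highest at 195.99 and 94.2 CPM (1.04, 0.61 to 1.54), and the abundant Gars and Phgdh stood at -0.25 and -0.12, with Phgdh at -0.77 from whole-number values.

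**Figure D4:**
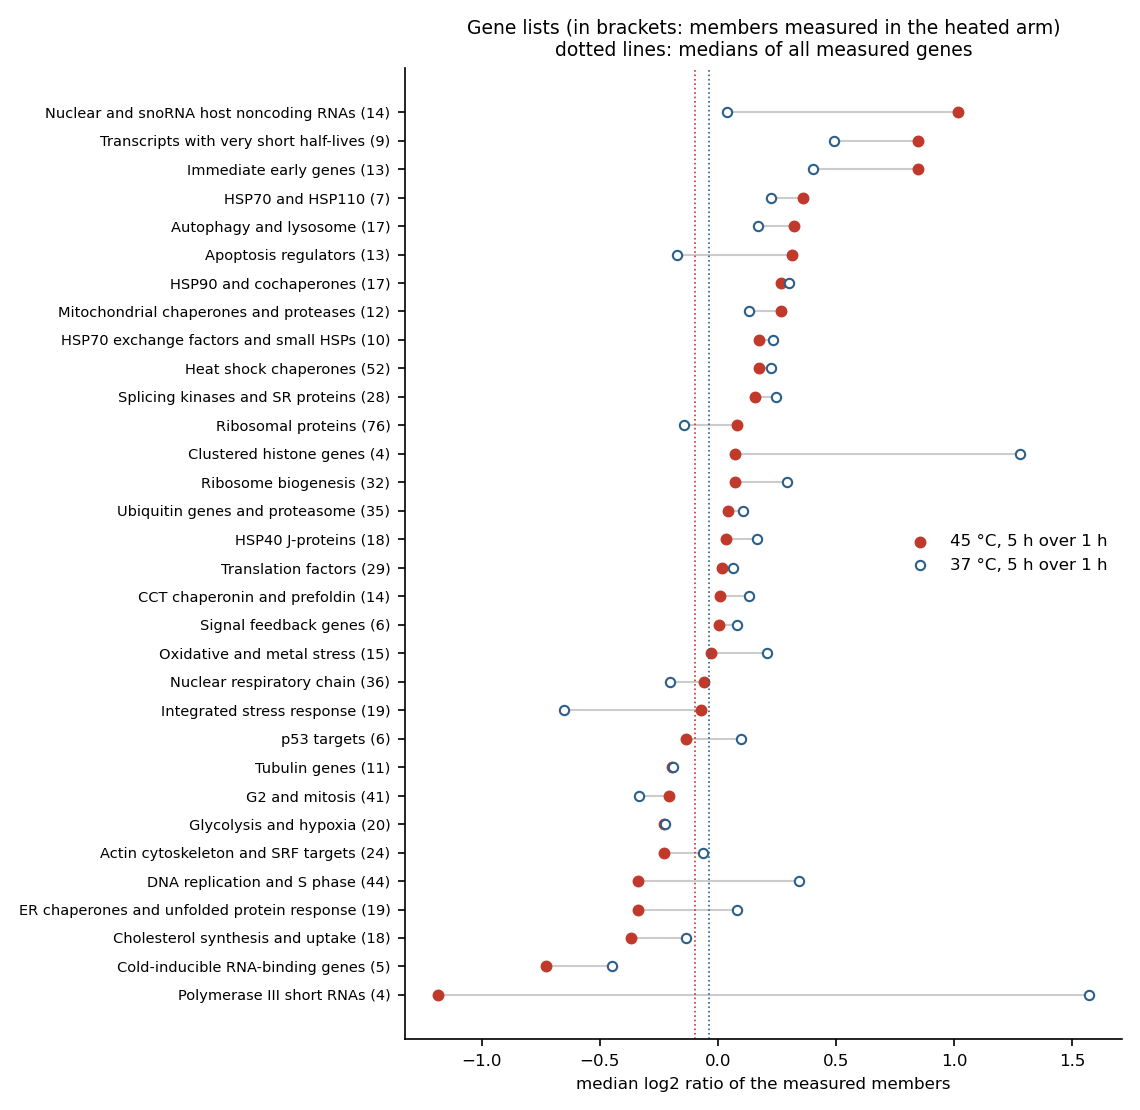
Median log2 ratio of 5 h over 1 h for the gene lists with at least 4 measured members, over members measured in the heated arm (filled points; number of members in brackets) and over members measured in the 37 °C arm (open points). Dotted lines are the medians of all measured genes, and the noncoding list lies at 1.02 in the heated arm and 0.04 in the 37 °C arm.

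Most measured actin-related genes stood lower at 5 h, with Tmsb4x the lowest of the 24. Tmsb4x, which encodes an actin-sequestering peptide, had 0, 991 and 6953 CPM as lowest, median and highest of the cells at 5 h, against 2195, 3799 and 6463 CPM at 1 h. All but 40 of the cells at 5 h (82.1%, 76.4% to 86.9%) lay below every cell at 1 h. It summed to 1408 CPM at 5 h and 3616 CPM at 1 h (-1.36, -1.44 to -1.28), with 2876 and 3845 CPM in the control arm (-0.42, -0.55 to -0.29). Of 24 measured actin cytoskeleton and SRF target genes among 25, 21 stood lower with a median of -0.23 (control -0.06). Among all measured genes 59.4% stood lower. Actb, with the most UMIs, stood at -0.21 (-0.26 to -0.17), or 0.061 from whole-number values, Tmsb10 at 0.08 (7.9e-05 to 0.15), or -0.0037 without 1 h replicate 2, and Flna, an actin crosslinker, highest at 0.22 (-0.25 to 0.77). Of 11 measured tubulin genes 10 stood lower, with medians of -0.19 in both arms, Tbcc, a tubulin cofactor, lowest at -1.31, or -0.63 thinned, and Tuba1a highest at 0.13, or -0.32 thinned and -0.996 from whole-number values. Tuba1b and Tubb5 stood at -0.02 and -0.06.

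Surface and signalling genes were among the 12 named as lower by rank. Nrp2, a neuropilin coreceptor, stood at 10.1 CPM at 5 h and 85.04 CPM at 1 h (-3.08, -3.67 to -2.45; control -0.08), with UMIs in 40 of the cells at 5 h and in 10 of 13 cells at 1 h. Cd160, a receptor of cytotoxic lymphocytes, had 0, 81.7 and 700.0 CPM as lowest, median and highest at 5 h, against 33.4, 328 and 663 CPM at 1 h, and summed to 122.04 and 342 CPM (-1.49, -1.74 to -1.23; control -0.27). Ikzf2, the transcription factor Helios, stood at 33.4 and 142.5 CPM (-2.10, -2.50 to -1.66), with -0.84 (-1.61 to -0.16) in the control arm, so part of this ratio was also seen at 37 °C. Spry4, a feedback inhibitor of receptor tyrosine kinases, stood at 18.2 CPM at 5 h and 68.95 CPM at 1 h (-1.94, -2.51 to -1.29). Anxa1, a membrane-binding annexin, stood at 11.97 and 64.4 CPM (-2.43, -3.05 to -1.74), or -1.46 thinned. The summed leukocyte markers were also lower at 5 h, at 3069 CPM against 4206 CPM at 1 h, and their part in these ratios was not tested.

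Of the other genes named as lower, Lsm8 encodes a subunit of the ring that binds U6 RNA. It had 0, 28.04 and 237 CPM as lowest, median and highest at 5 h, against 50.5, 123.7 and 285 CPM at 1 h, and all but 71 cells at 5 h (68.2%) lay below every cell at 1 h. Its sums were 41.7 and 142.5 CPM (-1.78, -2.17 to -1.35; control -0.14). Dynlt1b, a dynein light chain gene with near copies, stood at 25.2 CPM at 5 h and 93.4 CPM at 1 h (-1.91, -2.40 to -1.37), and all but 26 cells at 5 h (88.3%) lay below every cell at 1 h, with 92.5% of its UMIs not whole. Prkx, a kinase gene, stood at 35.1 and 195.4 CPM (-2.48, -2.84 to -2.10) with a highest cell of 1848 CPM at 1 h, and stood at -0.06 without 1 h replicate 5. Trappc9, a vesicle tethering gene, stood at 14.4 and 64.4 CPM (-2.18, -2.78 to -1.50), or -0.97 without 1 h replicate 13 and -2.94 thinned. Prkx and Trappc9 thus rested largely on 1 cell each.

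Splicing genes stood in both directions. Clk1, a kinase of SR proteins whose RNA is known to mature on stress, stood at 142.8 CPM at 5 h and 43.7 CPM at 1 h (1.67, 1.06 to 2.45; control 0.65), and 62.8% of the cells at 5 h lay above all cells at 1 h. Its ratio was 4.43 thinned. Srsf3, an SR protein, stood at 208.1 CPM at 5 h and 494 CPM at 1 h (-1.25, -1.46 to -1.03; control 0.22), and 52.5% of the cells at 5 h lay below all cells at 1 h. In the list of 29 genes 28 were measured and 18 stood higher, with a median of 0.16 against 0.25 in the control arm, and the abundant Rbm39 and Srsf2 stood at 0.15 and -0.31. In a list of 6 cold-inducible and other RNA-binding genes, 5 were measured and 4 of these stood lower. Srsf5 stood at -1.10 (-1.44 to -0.72) and Rbm3, a cold-shock protein, at 482 and 853 CPM (-0.82, -0.98 to -0.66). Rbmx and Nono stood at -0.73 and -0.08, and Sfpq, a paraspeckle protein, at 0.55 (0.30 to 0.82). The median of the list was -0.73, but 0.10 thinned to 5000 UMIs. The control median of this list was -0.45.

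Several large gene groups differed little between the times. Ribosomal protein genes, all 76 of which were measured, had 57 higher with a median of 0.08, against 11 of 76 higher with -0.15 in the control arm. Rps14 stood highest at 0.33 (0.24 to 0.42) and Rpl24 lowest at -0.29 (-0.41 to -0.17), and the abundant Rplp1 and Rpsa stood at 0.19, or -0.10 thinned, and -0.0049. Translation factors had a median of 0.02 over 29 genes, with Eif4b at 0.49, the helicase gene Eif4a1 at -0.79 (-0.97 to -0.61), and Eef1a1 and Eef1b2 at -0.09, or 0.74 from whole-number values, and -0.01. Ribosome biogenesis genes had 19 of 32 higher and a median of 0.07 (control 0.29), with Nolc1 at 0.56, Utp20 at -0.83, or -0.04 without 1 h replicate 2 and -0.04 thinned, Ncl at -0.02 and Npm1 at 0.24. Nuclear genes of the respiratory chain had 15 of 36 higher and a median of -0.06 (control -0.20), from Sdhd at -0.69 to Atp5o at 0.34, or 0.94 thinned, with Atp5b and Atp5g3 at 0.04 and -0.36. Glycolysis and hypoxia genes had 4 of 20 measured higher and medians of -0.23 in both arms. Slc2a1, a glucose transporter, stood lowest there at -1.83 (-2.51 to -1.02) and Vegfa highest at 0.99 (0.25 to 1.96), or 1.67 thinned, while Gapdh stood at -0.12, or 6.27 from whole-number values, and Ldha at -0.18.

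Death and inflammation genes gave small or few values. Of 13 measured apoptosis regulators among 29, 7 stood higher with a median of 0.31, or -0.24 among those of at least 100 CPM. Cflar, which blocks caspase-8, stood highest at 125.3 CPM at 5 h and 41.4 CPM at 1 h (1.56, 0.93 to 2.36), and Casp8 itself lowest at 19.1 and 59.8 CPM (-1.67, -2.26 to -0.98), with control ratios of -0.64 and 0.70. Cycs and Bcl2l1 stood at -0.24, or 0.16 thinned, and -0.51. Of 6 measured p53 targets 3 stood higher with a median of -0.13, from Zmat3 at -0.72, or -1.33 thinned, to Bbc3, the PUMA gene, at 1.22 (0.25 to 2.65). Mdm2 and Ccng1 stood at 0.12 and -0.56, or at -0.43 and -1.64 thinned. Interferon and NF-kB genes were mostly not measured, with 3 of 22 each and medians of 0.01 and -0.38. The interferon median was -1.08 thinned to 5000 UMIs. Psmb10, Psmb8 and B2m stood at 0.19, -0.41 and 0.01, or at -0.74, -1.02 and -0.20 thinned, and Rela and Nfkb1 at 0.13 and -0.58. Of 5 heat shock factor genes 2 were measured, Hsf1 at 35.8 CPM at 5 h and 34.5 CPM at 1 h (0.01, -0.69 to 0.92) and Hsbp1 at -0.25 (-0.74 to 0.31).

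**Figure D5:**
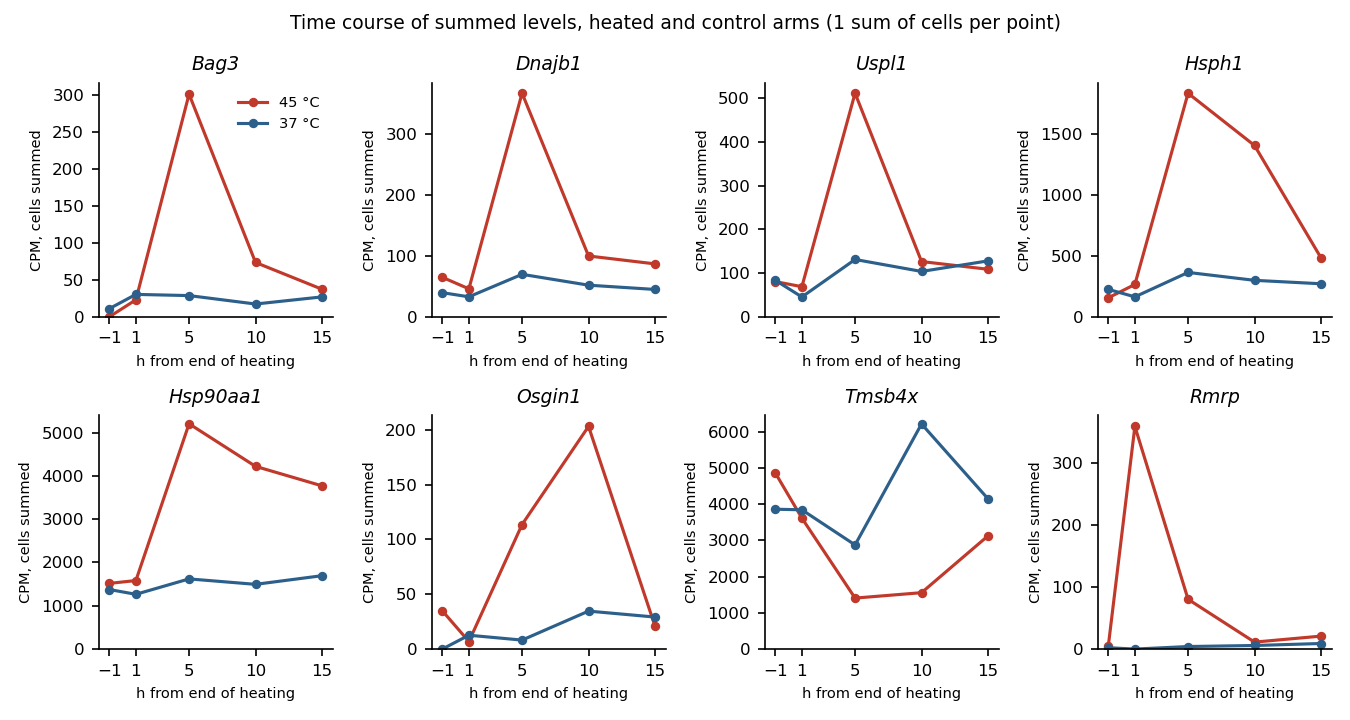
Summed CPM of 8 genes by hours from the end of heating (-1 h, then 1 h, 5 h, 10 h and 15 h), with the heated arm in red and the 37 °C arm in blue and 1 sum of cells per point. In the heated arm Bag3 goes through 0, 22.98, 301, 73.5 and 37.3 CPM, and Osgin1 is highest at 10 h. The heated -1 h points rest on 6 cells, with a floor of 14.97 CPM.

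Over the 5 times of the heated arm, most genes that stood higher at 5 h than at 1 h had their lowest level at 1 h. Of the 200 genes at least 2-fold higher, 73.5% were lowest at 1 h, against 21.8% of all measured genes. Their highest level came at -1 h for 10.5%, at 5 h for 41.5%, at 10 h for 33% and at 15 h for 15%, against 28.2%, 8.60%, 25.3% and 19.7% of all measured genes. The choice of these genes favours a lowest level at 1 h. It leaves no place for a highest level at 1 h or a lowest level at 5 h. The shares of all measured genes are therefore not a like background, and the counts are a description. Bag3 had 0, 22.98, 301, 73.5 and 37.3 CPM in order of time from -1 h to 15 h, Dnajb1 had 64.9, 45.97, 367, 99.8 and 86.9 CPM, and Hsph1 had 156.3, 266, 1838, 1409 and 485 CPM. Uspl1 had 80.7, 68.95, 512, 126.5 and 108.9 CPM, and Hsp90aa1 had 1517, 1582, 5202, 4219 and 3769 CPM. All 5 of these genes were highest at 5 h and still stood above their 1 h levels at 15 h. Osgin1 peaked later, with 34.9, 6.90, 113.6, 203.1 and 20.9 CPM. Of the 259 genes at least 2-fold lower, 48.6% had their highest level at 1 h, against 18.2% of all measured genes, and 27.4% at -1 h, against 28.2% of all measured genes. The choice of these lower genes likewise favours a highest level at 1 h and leaves no place for one at 5 h. Their shares are therefore a description too. Rmrp, with 4.99, 359, 80.2, 11.2 and 20.9 CPM, was highest at 1 h, and Tmsb4x, with 4864, 3616, 1408, 1557 and 3127 CPM, was highest at -1 h.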

How the data were processed

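Single picked cells were lysed and reverse transcribed with a primer that carries a molecular barcode and 14 T bases, followed by template switching and PCR, per the labels' protocols. The authors deposited a table of estimated counts (UMIs) for 24781 genes in 360 cells. The submitters' processing notes list STAR and mm10, but no source used here gives the counter, the annotation or a cell filter. Of the deposited values above 0, 5.30% were not whole and held 25.9% of all UMIs, which were kept without rounding since no count model was run. No doublet caller was run on the picked cells, and the spike-ins that the labels name were not analysed here. Depth per cell sets the precision, so a gene of few UMIs at 1 h has a wide interval.

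UMIs of the cells of a group were summed and scaled to CPM. Ratios carried 0.5 UMI per sum, with exact conditional binomial (Clopper-Pearson) intervals at 95%. The interval of a list's median is the median of its members' lower and upper bounds. PCR and picking error are not covered. Intervals for shares of cells take the cells as independent and the extremes of the 1 h cells as fixed. Genes were measured at a mean of at least 20 CPM, and at least 2-fold differences were counted. A gene at 0 in a group was bounded by 3 counts over that group. Thinning drew 5000 UMIs per cell, which left out 1 of 223 cells at 5 h and 0 of 13 at 1 h. The draw was made once, and the filter of 20 CPM was applied again to the thinned sums. Thinned list medians and counts can thus rest on other genes than the main ones. No p-value is given because each group is 1 sample.

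The named genes were the first 12 in each direction by the interval bound nearest 0, among measured genes of at least 50 CPM with a UMI in at least 50% of the cells of the higher group and a direction kept when any single cell was left out. Predicted genes, Rn45s and ribosomal protein genes were not ranked. From each of 34 lists the highest, the lowest and the 2 members with most UMIs were added. The comparison, the lists and the rule were chosen with earlier results of these data known. Alternatives were another scaling, the mean of single-cell CPM, whole-number values, thinning, 1 UMI added, other level filters and leaving out each cell. The code was tested on simulated data. Some measured genes are not reported here. Python packages were numpy 2.4.6, pandas 2.3.3, scipy 1.17.1 and matplotlib 3.10.9.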

Additional observations from a re-analysis of the deposited data

Results flagged for a closer look

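For 9 named genes and 1 gene list the ratio of 5 h over 1 h had opposite signs in the heated arm and in the 37 °C arm, with counting intervals that left out 0 in both. The difference between the arms was not tested, since each group is 1 sample. Higher at 5 h in the heated arm and lower in the 37 °C arm were Herpud1, at 1.18 and -1.69, the paraspeckle gene Sfpq, at 0.55 and -0.45, the snoRNA host Gas5, at 0.43 and -0.42, and the mitotic activator Cdc20, at 0.37, or -0.53 with cells thinned to 5000 UMIs, and -0.73. Lower in the heated arm and higher in the 37 °C arm were Nasp, at -1.46 and 0.66, the peroxiredoxin gene Prdx1, at -0.43 and 0.27, and Srsf2, at -0.31 and 0.44. The short RNAs Rn4.5s and Rpph1 stood at -1.11 and -1.26 in the heated arm and at 1.57 and 3.02 in the 37 °C arm. The list of polymerase III RNAs had a median of -1.19 over 4 members in the heated arm and 1.57 over 1 member in the 37 °C arm.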

How the results depend on the processing

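No paired analysis was possible because replicate numbers only name cells and each group is 1 sample. The count of genes at least 2-fold higher was 200, and 302 from whole-number values, 324 with cells thinned to 5000 UMIs, 28 at a mean of at least 100 CPM and 993 with no filter. The count at least 2-fold lower was 259, and 1107 thinned, 24 at 100 CPM and 3711 with no filter. Leaving out each cell in turn kept both counts within 1.5 times of these, with at most 233 higher and 244 to 342 lower, and gave a chaperone median of 0.12 to 0.20. Among genes whose interval left out 0, signs turned for Eef1a1 (0.0052 with ratios centred on the median of all genes, 0.74 from whole-number values) and Tmsb10 (-0.025 as a mean over cells, -0.039 from whole-number values, and -0.0037 without 1 h replicate 2 to 0.11 without 1 h replicate 6). From whole-number values they also turned for Atp5g3 (0.095), Gapdh (6.27), Actb (0.061) and Rn45s (-0.34). Thinning turned Hspa13 (0.66), Myc (0.55), Cycs (0.16), Cdc20 (-0.53) and Rplp1 (-0.10), and also 15 of 38 named genes whose interval held 0, such as Dnaja3 (0.33) and Psmb10 (-0.74). Top2a stood between -0.36 without 1 h replicate 13 and 0.049 without 1 h replicate 1. Without the 25 cells richest in Rn45s, an alternative added after seeing the data, Rn45s stood at -0.10. The cause of these turns was not tested. Depth limits genes of few UMIs in the 13 cells at 1 h.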

Other observations

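Several immediate early and stress genes not described above also stood higher at 5 h than at 1 h in the heated cells, and they were singled out after their values were seen. Among immediate early genes, Zfp36, which speeds decay of AU-rich RNAs, had a log2 ratio of 1.94, Klf6, a zinc finger transcription factor, 1.90 and Ier5, known in human cells to promote dephosphorylation of HSF1, 1.85. Snhg4 and Snhg1, hosts of small nucleolar RNAs, stood at 1.67 and 1.22, so that the higher noncoding RNAs were not Malat1 alone. Rsrc2 and Clk3, genes of RNA splicing, stood at 1.47 and 1.25, next to Clk1.

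On the lower side, Ccne1, the cyclin that starts S phase, stood at -1.77, Rrm2, which makes deoxynucleotides, at -1.39 and Prim1, a primase subunit, at -1.25. Hk2, a hexokinase, stood at -1.51 beside the glucose transporter Slc2a1, while the later glycolytic genes Eno1 and Pkm stood at 0.11 and -0.06. Acat2 of cholesterol synthesis stood at -1.20.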
